A study of Mus musculus with 46 samples.

Results

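The respiratory chain assembly factors are nuclear-encoded proteins that build the complexes of oxidative phosphorylation without becoming part of them. The 45 members were a list of gene symbols set by function: 14 factors of complex I, 4 of complex II, 6 of complex III, 18 of complex IV and 3 of the ATP synthase, complex V. All 45 symbols were found among the 55487 genes listed in each library, and the rule that lists them uses no expression value. Between 43 and 44 of them had enough reads to be tested in each experiment.

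Each respiratory complex is put together in the inner mitochondrial membrane from subunits, haem, flavin, iron-sulphur and copper cofactors, and most complexes join proteins encoded by mitochondrial DNA with proteins imported from the cytosol. Assembly factors hold the unfinished intermediates, insert the cofactors, or couple the synthesis of a mitochondrially encoded subunit to its use. Loss of single factors such as Surf1 or Bcs1l is a known cause of mitochondrial disease, and pancreatic beta cells and hepatocytes both depend on oxidative phosphorylation for secretion and metabolism.

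RNA was sequenced from mouse islets of Langerhans and livers in 46 libraries of 3 experiments. The Tfam islet experiment held 14 libraries: 5 female and 3 male controls, and 4 female and 2 male islet samples labelled Tfam KO. Tfam packages mitochondrial DNA and is a factor of its transcription. The Clec16a islet experiment held 19 libraries. Controls comprised 4 samples on the diet labelled RFD and 6 on HFD, and the samples labelled Clec16a KO comprised 4 on RFD and 5 on HFD. Clec16a is a regulator of mitophagy, and the labels do not write out the diet names. The liver experiment held 6 controls, 4 samples labelled Mfn DKO, after the mitochondrial fusion proteins Mfn1 and Mfn2, and 3 Tfam KO samples. The descriptions of all 13 livers carry the letters AAV, so the controls share whatever vector these letters stand for. Islets were kept in culture overnight and livers were flash frozen before RNA was isolated. Strain, age, the promoter or recombinase behind each deletion, and the sex of the livers were not given in the sources used here. Nothing in the labels says how the samples of a group were separated, so p-values measure the spread between these libraries, which may in part be technical.

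Tfam islet libraries held 55223041 to 83342809 counts each, Clec16a islet libraries 16235173 to 55810879, and liver libraries 41961114 to 56894510. Values below are CPM, counts brought to a common library size with the trimmed mean of M-values (TMM) within an experiment, and differences are log2 fold changes with the standard error (SE), tested with edgeR's quasi-likelihood test. A gene was called at a Benjamini-Hochberg adjusted p of 0.05 or less over all genes tested. Tfam was 37.8 to 44.7 CPM in control islets and 16.0 to 18.9 CPM in Tfam KO islets, a log2 change of -1.21 (SE 0.06, edgeR adjusted p = 3.76e-10). In the livers Tfam was 54.1 to 66.2 CPM in controls and 13.1, 15.0 and 15.9 CPM in Tfam KO, and Mfn1 and Mfn2 fell by 2.003 and 2.04 on the log2 scale in Mfn DKO. Clec16a did not separate its groups: it was 20.9 to 28.4 CPM in RFD controls and 23.4 to 30.0 CPM in the RFD libraries labelled KO, and 21.4 to 31.8 against 23.6 to 32.9 CPM on HFD (log2 differences 0.13 and 0.08, edgeR adjusted p = 0.612 and 0.74). The gene's count therefore does not check those labels, and whether the deleted part is among the counted exons was not tested. Islet libraries carried beta cell markers, summing to at least 106420 CPM, and livers carried hepatocyte markers, with Ins1, Iapp, Nkx6-1 and Gcg at 0 counts in every liver. Clec16a KO HFD replicate 4 and liver Tfam KO replicate 2 stood apart from their groups. In the former, 15 genes of the mitochondrial stress response summed to 586 CPM against 1367.5 to 1665.3 in its group and 589 to 847 in HFD controls; in the latter, hepatocyte markers summed to 24843 CPM against 65296 and 102710 in its group.

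Among control libraries, the factors spanned more than 2 orders of magnitude in the authors' TPM, a measure of transcript abundance that corrects for transcript length. Uqcc2, which with Uqcc1 binds newly made cytochrome b, had the highest median TPM in Tfam control islets (259.6), followed by Coa3 (205.9), which stabilises the newly made first subunit of cytochrome oxidase. In control livers Coa3 was highest at 125.1 TPM, followed by the copper-binding factor Coa6 at 84.3 TPM and Uqcc2 at 77.6 TPM. Lyrm7, the chaperone of the Rieske iron-sulphur protein, was among the lowest at 1.97 TPM in Tfam control islets and 1.14 TPM in control livers. Pet117, a cytochrome oxidase factor, had 0 counts in every library, and all of its exonic bases are shared with Kat14 on the same strand. Sco2, which delivers copper to the second cytochrome oxidase subunit, had at most 1 count in the Tfam islets and 0 in the livers, and was tested only in the Clec16a islets, at 0.713 to 2.61 CPM. Of its exonic bases, 66.2% are shared with Ncaph2 and 68.3% with Tymp, so its level is uncertain.

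Both islet experiments used the same tissue, yet Cox20, a chaperone of the second cytochrome oxidase subunit, had a median of 38.9 TPM in Clec16a RFD controls and 1.13 TPM in Tfam controls, a ratio of 34.5. Sdhaf1, an iron-sulphur factor of complex II, had 14.8 against 3.17 TPM. Of the exonic bases of Cox20, 91.1% are shared with Hnrnpu on the opposite strand, and of those of Sdhaf1, 69.6% with E130208F15Rik. Strand use in counting was not given in the sources used here, so levels of these overlapping genes are uncertain and are not compared between experiments. In all, 20 of 45 members share exonic bases with another gene, and 9 share more than 20%, Ecsit (24%) and Pet100 (52.6%) among them.

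In Tfam KO islets, the factors that changed were mostly higher, and cytochrome oxidase factors made up 4 of the 8. Of 43 members tested, 8 rose and 1 fell, 20.9% of the list, and 20.9% of all 19752 genes tested were called in this comparison, so the share of factors called equals the background (11.6% of all genes were called higher and 9.29% lower). By complex, 3 of 14 complex I factors, 1 of 6 complex III factors and 4 of 16 complex IV factors rose, 1 of 4 complex II factors fell, and edgeR called none of the 3 complex V factors (1 had an unadjusted p under 0.05). The median log2 change was 0.08 over the factors and -0.01 over all genes tested. These are bulk samples, in which fewer cells of a type and less RNA per cell cannot be told apart. All 10 beta cell markers fell (median log2 change -0.77), their sum being 189400 to 296190 CPM in controls and 106420 to 142230 CPM in Tfam KO, while edgeR called none of 12 exocrine and none of 5 alpha cell markers (1 and 0 had an unadjusted p under 0.05). The part of these markers in the results was not tested.

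**Figure D1:**
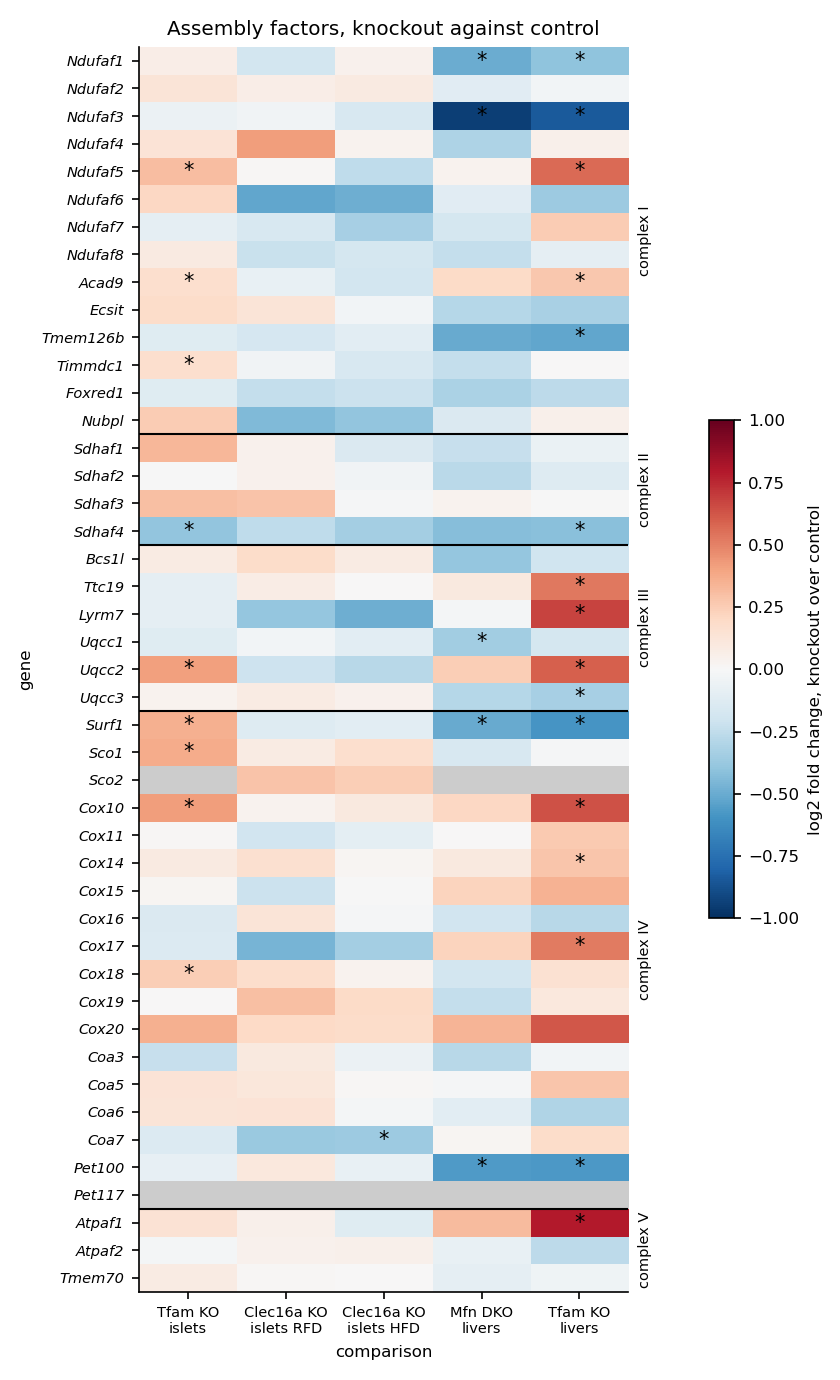
Log2 change of each of the 45 factors in the 5 knockout comparisons, as colour from -1 to 1, with an asterisk where the adjusted p was 0.05 or less and grey where the gene was not tested. The 9 calls in Tfam islets include 8 higher values, the 5 calls in Mfn DKO livers are all lower, and Surf1 changes sign between islets and livers.

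Surf1 (ENSMUSG00000015790), which acts early in cytochrome oxidase assembly with the haem-bearing subunit, had a lowest, median and highest level of 31.8, 36.1 and 41.1 CPM in control islets and 44.4, 45.3 and 50.0 CPM in Tfam KO islets. Every Tfam KO library lay above every control. The log2 change was 0.35 (SE 0.060, edgeR adjusted p = 0.000546), a ratio of 1.28 with a 95% interval of 1.18 to 1.38. Cox10 (ENSMUSG00000042148), which makes the haem o precursor of haem a, stood at 7.77, 8.20 and 9.81 CPM in controls and 10.3, 11.1 and 12.5 CPM in Tfam KO, again without overlap (log2 change 0.41, SE 0.0741, edgeR adjusted p = 0.0008). Cox18, which inserts the tail of the second subunit into the inner membrane, rose by 0.24 (SE 0.071, edgeR adjusted p = 0.0227), from 7.89 to 9.95 CPM in controls to 9.99 to 10.9 CPM in Tfam KO, with groups that just failed to touch. Sco1, a copper carrier to the same subunit, rose by 0.37 (SE 0.0802, edgeR adjusted p = 0.0035). Its ranges of 8.08 to 11.4 and 10.9 to 14.001 CPM overlapped.

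Among complex I factors, Ndufaf5, which hydroxylates an arginine of a core subunit, stood at 6.47 to 8.31 CPM in controls and 8.16 to 10.6 CPM in Tfam KO, a rise of 0.31 (SE 0.0801, edgeR adjusted p = 0.0111) with ranges that overlapped slightly. Acad9, a member of the intermediate assembly complex for the membrane arm and also an acyl-CoA dehydrogenase, was 20.6 to 23.8 CPM in controls and 24.2 to 28.3 CPM in Tfam KO, with no overlap (0.17, SE 0.0542, edgeR adjusted p = 0.0356). Timmdc1, another membrane arm factor, rose by 0.17 (SE 0.0564, edgeR adjusted p = 0.0411), with overlapping ranges. Acad9 and Timmdc1 were called in 6 and 4 of the 14 fits that each left out 1 library, whereas Surf1, Cox10, Sco1, Ndufaf5 and Sdhaf4 were called in all 14.

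Sdhaf4 was the factor that fell. It binds the flavinated catalytic subunit of complex II, and was 11.1, 13.1 and 17.3 CPM in controls and 9.29, 10.2 and 10.4 CPM in Tfam KO, so that all Tfam KO libraries lay below all controls (log2 change -0.40, SE 0.0962, edgeR adjusted p = 0.00749). Its fellow complex II factor Sdhaf3, which was chosen after its values were seen, had a log2 difference of 0.30 and an adjusted p of 0.0542 by edgeR. Uqcc2 (ENSMUSG00000024208) was the complex III factor that rose, by 0.41 (SE 0.119, edgeR adjusted p = 0.0217). It varied most among controls, at 79.6, 102 and 162 CPM, against 124, 147 and 157 CPM in Tfam KO. The control at 162 CPM, female replicate 4, lay above all Tfam KO libraries. Without that library 15 members were called and 25.3% of all genes, and without Tfam KO male replicate 2 there were 5 members and 14.9% of all genes.

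**Figure D2:**
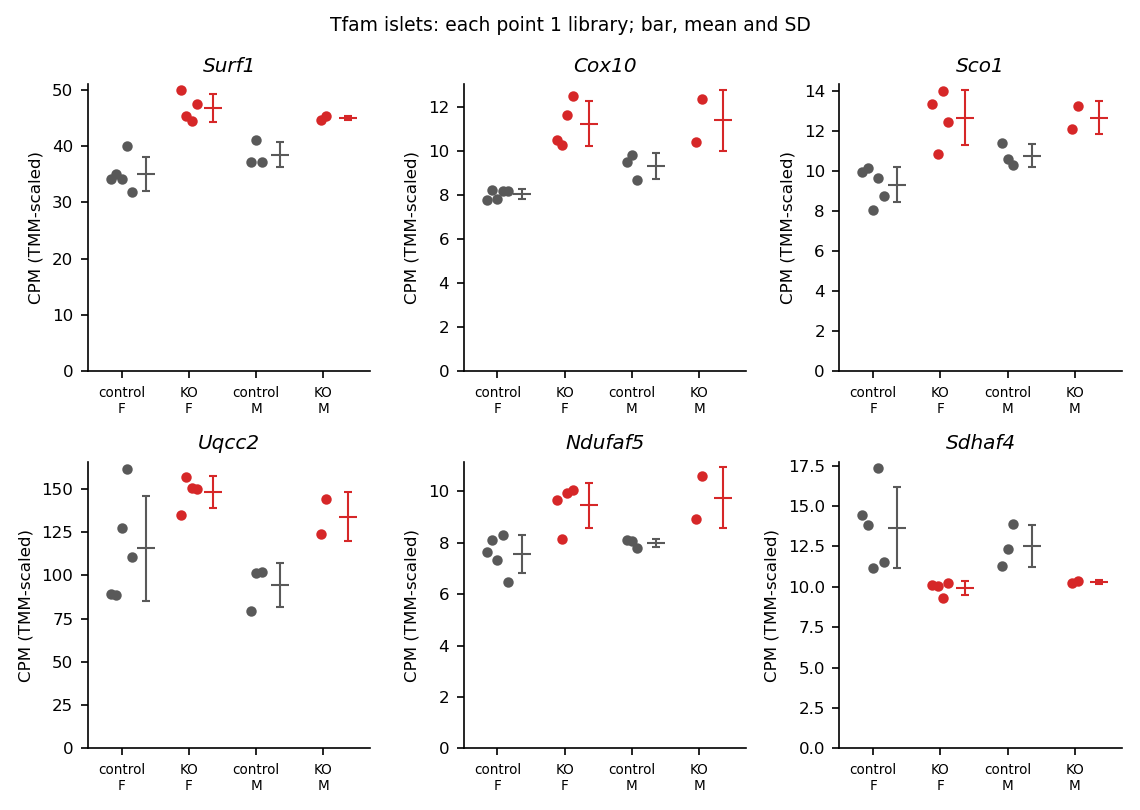
CPM of Surf1, Cox10, Sco1, Uqcc2, Ndufaf5 and Sdhaf4 in each Tfam islet library, by genotype and sex, with the bar at the group mean and its SD. Surf1 and Cox10 lay higher and Sdhaf4 lower in every Tfam KO library, while a control female library overlapped the Tfam KO range of Uqcc2.

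Within females, 5 members were called (4 higher, 1 lower), where 10.8% of all genes were called, 6.67% higher and 4.17% lower:, Surf1 at 0.42, Cox10 at 0.48, Sco1 at 0.44, Acad9 at 0.22 and Sdhaf4 at -0.46. Within males, with 2 Tfam KO libraries, Coa7, a haem-binding cytochrome oxidase factor, fell by 0.35 (edgeR adjusted p = 0.0494, with 8.93% of all genes called), and its female value was -0.03. The difference between the sexes was called for none of 43 members by edgeR, where 0% of all genes were called, with 1 member at an unadjusted p under 0.05 and none by DESeq2's Wald test. Coa7 was that member, an interaction of -0.32 (SE 0.128, edgeR adjusted p = 0.709). The median SE of the interaction was 0.165, so even differences of the size of that of Coa7 were not detectable here.

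Promoters are shown for Surf1, Cox10 and Uqcc2, which are among the 6 members called with Tfam loss in both islets and livers. These promoters are the 250 bases before the RefSeq start on GRCm38.p6, all on the minus strand and printed 5′ to 3′. Surf1 was chosen by the size of the difference between its Tfam effects in islets and livers (0.92), not of a change in 1 tissue. It lies at chr2:26916531-26916780, with none of the 5 motifs searched. Cox10 (chr11:64079473-64079722) and Uqcc2 (chr17:27133892-27134141) were picked after their matches were seen, and the capitals mark the ETS motif CCGGAAGT in Cox10 and in Uqcc2 the NRF1 motif, which is the 10 capital letters with any base allowed at position 6.
Surf1: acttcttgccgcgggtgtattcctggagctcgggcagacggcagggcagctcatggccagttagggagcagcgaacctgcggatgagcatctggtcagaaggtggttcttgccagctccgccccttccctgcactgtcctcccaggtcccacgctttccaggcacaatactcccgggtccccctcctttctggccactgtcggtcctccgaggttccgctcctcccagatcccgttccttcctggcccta
Cox10: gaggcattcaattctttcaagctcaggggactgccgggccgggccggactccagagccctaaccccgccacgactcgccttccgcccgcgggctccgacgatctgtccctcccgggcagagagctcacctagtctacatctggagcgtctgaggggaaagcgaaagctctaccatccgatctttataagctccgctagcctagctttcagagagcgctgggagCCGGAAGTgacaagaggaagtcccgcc
Uqcc2: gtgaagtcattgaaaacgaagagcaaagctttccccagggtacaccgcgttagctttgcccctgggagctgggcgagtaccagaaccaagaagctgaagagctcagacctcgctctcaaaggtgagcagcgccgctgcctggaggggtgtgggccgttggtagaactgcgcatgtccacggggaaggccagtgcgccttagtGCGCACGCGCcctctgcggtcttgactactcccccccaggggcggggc
Of the 45 members, 39 had a RefSeq promoter entry, and Ndufaf6, Acad9, Cox17, Cox18, Coa6 and Tmem70 had none. On either strand, the ETS motif occurred in 4 of 39 (10.3%: Bcs1l, Cox10, Cox16 and Timmdc1) against 2.88% of 32851 promoters, and the NRF1 motif in 2 (5.13%: Ndufaf4 and Uqcc2) against 3.74%. The YY1 motif AAGATGGC occurred in 1 (2.56%: Cox20) against 1.56%. The composite ATF4 and C/EBP motif TGATGNAA and the ERR motif TNAAGGTCA occurred in none, against 3.45% and 1.14% of all promoters. A match describes the letters in this window and is not a measured binding site.

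In the same islets, the structural subunits that these factors assemble were tested as a list. Of 78 nuclear-encoded subunits tested, 6 rose and 2 fell, with a median of 0.02, where 11.6% of all genes were called higher and 9.29% lower. Cox6a2, a muscle-type cytochrome oxidase subunit, rose by 0.79 (edgeR adjusted p = 0.000759), and Ndufb2 of complex I fell by 0.48 (edgeR adjusted p = 0.00203). All 11 proteins encoded by mitochondrial DNA that were tested fell, with a median of -2.64, and all 15 genes of the mitochondrial stress response list rose, with a median of 1.83. Apopt1, from a list of 15 further assembly genes, was the one gene called there and rose by 0.45 (edgeR adjusted p = 0.00106). The summed level of the factors was 960.91 to 1130.4 CPM in control females and 1041.4 to 1084.6 CPM in Tfam KO females, ranges that overlap.

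In the islets labelled Clec16a KO, a single factor was called. On RFD, edgeR called none of 44 members, while 7.52% of 17254 genes tested were called; 4 members had an unadjusted p under 0.05, and DESeq2's Wald test called 1. On HFD, edgeR called 1 of 44, against 9.57% of all genes, with 4 at an unadjusted p under 0.05 and 2 by DESeq2's Wald test. The median log2 difference of the factors was 0.04 on RFD and -0.05 on HFD. The median SE of a factor was 0.136 on RFD and 0.117 on HFD, against 0.0801 in the Tfam islets.

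Coa7 (ENSMUSG00000048351) was the factor called on HFD. Its controls on HFD stood at 12.2, 13.2 and 17.2 CPM as lowest, median and highest, and the libraries labelled KO at 10.4, 9.71, 9.70, 11.8 and 12.4 CPM. One KO library reached into the control range. Coa7 fell by 0.36 (SE 0.103, edgeR adjusted p = 0.0301). The call was lost in 5 of 19 fits that each left out 1 library, without control HFD replicate 4 or 5 or KO HFD replicate 1, 2 or 3, with adjusted p-values up to 0.0996, and also with no filter on low counts or with only the groups compared in the fit. On RFD, Coa7 was 14.3, 13.04, 15.2 and 14.4 CPM in controls and 9.83, 11.2, 11.5 and 11.4 CPM in the libraries labelled KO, which do not overlap, with a log2 difference of -0.37 (SE 0.12) and an edgeR adjusted p of 0.0632. On the sequencing lanes named in the file names, the HFD difference was -0.18 in lane 7 and -0.49 in lane 8, and the RFD difference was -0.31 and -0.39. Both diets share 1 fit, and the genotype effect was not detectably different between them: the genotype by diet term was called for none of 44 members by edgeR, and for 0% of all genes, with none at an unadjusted p under 0.05 and none by DESeq2's Wald test.

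Ndufaf6, a factor of early complex I assembly, had the second smallest p on RFD, with 7.56, 4.66, 5.20 and 4.77 CPM in controls and 4.11, 2.56, 3.82 and 4.88 CPM in the libraries labelled KO (log2 difference -0.52, SE 0.215, edgeR adjusted p = 0.155). The groups overlap. Without Clec16a KO HFD replicate 4, 4 factors were called lower on HFD: Coa7 (-0.40), Cox17 (-0.55), Ndufaf6 (-0.59) and the arginine methyltransferase Ndufaf7 (-0.40), and 3369 genes (20% of those tested) were called in place of 1652. Cox17 is the copper chaperone that loads the Sco proteins and Cox11. Coa7 was then also called on RFD (-0.37, edgeR adjusted p = 0.045).

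Endothelial markers moved with genotype here, 5 of 7 being higher on each diet with summed levels of 573 to 693 CPM against 336 to 375 CPM on RFD, and 2 of 10 beta cell markers fell on each diet. Their part in the value of Coa7 was not tested. In the same libraries 11 of 15 stress response genes rose on each diet, with medians of 1.03 on RFD and 1.74 on HFD. Of 78 nuclear-encoded subunits edgeR called none on RFD (5 had an unadjusted p under 0.05) and 1 on HFD, Sdha, which fell by 0.27. Of all genes, 7.52% were called on RFD and 9.57% on HFD. The 8 tested proteins encoded by mitochondrial DNA were all negative on both diets, with none called by edgeR and none at an unadjusted p under 0.05 (medians -0.35 and -0.37).

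No factor was called for diet. In controls, HFD against RFD gave 0 of 44 members called by edgeR, 0 at an unadjusted p under 0.05 and 0 by DESeq2's Wald test, with 0.0406% of all genes called. Atpaf1, a chaperone of the ATP synthase beta subunit, had the smallest p together with Ndufaf6, at 0.17 and -0.24 on the log2 scale, and an edgeR adjusted p of 0.999. In the libraries labelled Clec16a KO the counts were again 0, 0 and 0, with 0.0116% of all genes called. Cox15 and Cox14 led there, at 0.19 and -0.18. Over all members, the 95% intervals of the diet difference in controls ran no further than -0.75 and 0.72.

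In Mfn DKO livers, the factors called were all lower, and they came from complexes I, III and IV. Of 43 members tested 5 fell and none rose, 11.6% against a background of 9.87% of 17024 genes (5.23% higher, 4.64% lower). The median over the factors was -0.16, against 0.02 over all genes, and 13 of 43 values were positive. By complex, 2 of 14 complex I factors, 1 of 6 complex III factors and 2 of 16 complex IV factors fell. edgeR called none of 4 complex II and none of 3 complex V factors, with 2 and 1 at an unadjusted p under 0.05, and the complex II median was -0.25.

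Ndufaf3 (ENSMUSG00000070283), which with Ndufaf4 builds the ubiquinone-binding arm of complex I, showed the largest fall among these calls. It was 14.1, 15.3 and 18.2 CPM as lowest, median and highest of the controls, and 5.42, 9.60, 7.86 and 9.52 CPM in the Mfn DKO livers. All 4 Mfn DKO livers lay below all controls, and the fall was 0.94 on the log2 scale (SE 0.261, edgeR adjusted p = 0.0393), a ratio of 0.521 with a 95% interval of 0.365 to 0.743. Its promoter is shown for that size of change. It spans chr9:108567437-108567686 on GRCm38.p6 (RefSeq, minus strand, 250 bases before the start) and holds none of the 5 motifs.
Ndufaf3: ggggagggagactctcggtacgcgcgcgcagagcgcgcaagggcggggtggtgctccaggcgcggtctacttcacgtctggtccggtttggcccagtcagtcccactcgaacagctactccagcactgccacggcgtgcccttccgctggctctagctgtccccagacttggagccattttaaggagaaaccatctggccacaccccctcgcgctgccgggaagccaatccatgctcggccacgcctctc

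Ndufaf1, an organiser of the membrane arm intermediate, was 29.1, 37.7 and 38.2 CPM in control livers and 24.4, 23.6, 28.9 and 23.2 CPM in Mfn DKO livers. The groups just separate, and it fell by 0.50 (SE 0.107, edgeR adjusted p = 0.0139). Surf1 fell by the same 0.50 (SE 0.115, edgeR adjusted p = 0.0182), from 45.8, 50.3 and 54.6 CPM to 34.0, 36.1, 36.7 and 35.3 CPM. The Mfn DKO values of Surf1 lay close together and well below the controls. Uqcc1, the partner of Uqcc2, fell by 0.35 (SE 0.0887, edgeR adjusted p = 0.0294) from 52.7 to 64.6 CPM in controls to 39.9 to 49.1 CPM, and Pet100, a cytochrome oxidase factor, by 0.56 (SE 0.164, edgeR adjusted p = 0.0469) from 17.8 to 25.1 CPM to 12.5 to 16.5 CPM. Of the 43 members tested, 11 (25.6%) had all Mfn DKO livers below all controls, as had 10.3% of all genes tested, and 0 had them all above, against 8.94% of all genes.

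Leaving out 1 liver changed the count of 5 strongly, from 1 without Mfn DKO replicate 1 to 11 without either Tfam KO replicate 2 or replicate 3. The share of all genes called moved with it, to 4.05% in the first case and 19.5% and 16.5% in the others. Those Tfam KO livers enter this comparison through the shared estimate of spread, the common scaling and the filter. Ndufaf1 was called in all 13 of those fits, Surf1 in 12, Uqcc1 in 7, and Ndufaf3 and Pet100 in 3. In livers with high and in those with low Xist, a transcript of the female X chromosome that splits the controls 3 and 3, all 5 named values kept their sign. The groups of all 5 do not overlap, so any split of the livers keeps these signs, and the split is no test of sex. Hepatocyte markers summed to 87259 to 104790 CPM in Mfn DKO against 103910 to 147050 CPM in controls. The one called was Tat, which rose by 1.33 (edgeR adjusted p = 0.0284). Apoa1 had the next smallest adjusted p, at -1.16 (edgeR adjusted p = 0.0803), so no hepatocyte marker was called lower. Of 8 macrophage markers edgeR called none, with 1 at an unadjusted p under 0.05. Of 8 fibroblast and stellate cell markers 2 rose, Col1a1 by 1.27 (edgeR adjusted p = 0.00857) and Col1a2 by 0.67 (edgeR adjusted p = 0.0442), both collagen genes, and 6 had an unadjusted p under 0.05, with sums of 294 to 349 CPM in Mfn DKO against 214 to 296 CPM in controls. The part of these markers in the result was not tested.

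In Tfam KO livers, more factors were called and in both directions. Of 43 members 9 rose and 7 fell, 37.2% of the list against a background of 29.3% of all genes, of which 18.1% were called higher and 11.3% lower. The median was -0.01 against 0.03 over all genes. The same 6 control livers serve this comparison and that with Mfn DKO. Complex I factors were called in both directions (2 higher, 3 lower of 14), complex III factors mostly higher (3 against 1 of 6), complex IV factors 3 higher and 2 lower of 16, 1 of 4 complex II factors lower and 1 of 3 complex V factors higher.

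**Figure D3:**
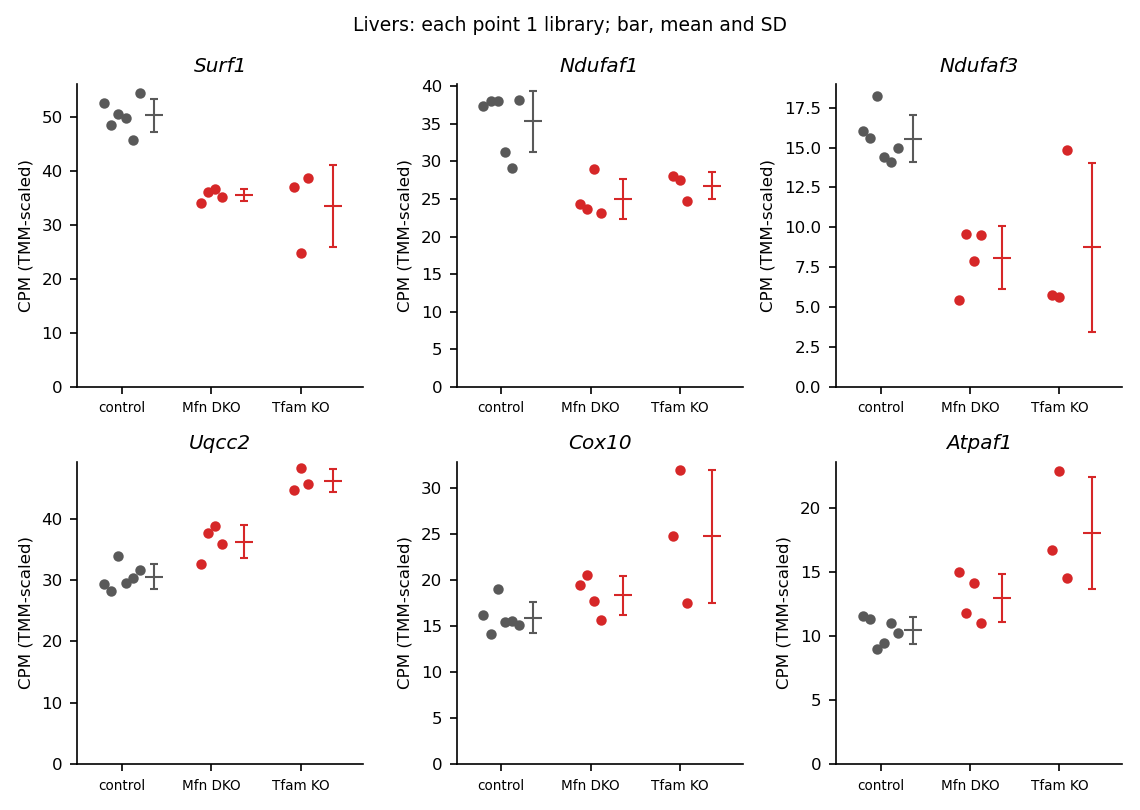
CPM of Surf1, Ndufaf1, Ndufaf3, Uqcc2, Cox10 and Atpaf1 in each liver library, for 6 controls, 4 Mfn DKO and 3 Tfam KO, with the bar at the group mean and its SD. Surf1 lay below the controls in both knockouts, Uqcc2 and Atpaf1 lay above them in Tfam KO, and a Tfam KO liver fell within the control range of Ndufaf3.

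Uqcc2 had the smallest adjusted p among the factors in these livers. It was 28.2, 29.98 and 34.001 CPM in controls and 44.7, 48.3 and 45.7 CPM in Tfam KO, well separated, with a rise of 0.60 (SE 0.0866, edgeR adjusted p = 0.00097) and a ratio of 1.51. The Mfn DKO livers had 32.7, 37.6, 38.9 and 35.95 CPM, the first inside the control range, and this difference, chosen after its value was seen, was not called (0.25, edgeR adjusted p = 0.0672). Atpaf1 was 9.0008, 10.6 and 11.5 CPM in controls and 16.7, 22.9 and 14.5 CPM in Tfam KO, again with no overlap, and rose by 0.79 (SE 0.15, edgeR adjusted p = 0.00319), a ratio of 1.73. A processed copy, Gm14117, matches 36.2% of the Atpaf1 transcript at 95% identity or more, so reads may be split between them.

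Of the other complex III factors, Ttc19, which clears fragments of the Rieske protein, was 18.2, 19.7 and 22.7 CPM in controls and 34.2, 28.9 and 22.9 CPM in Tfam KO (0.53, SE 0.132, edgeR adjusted p = 0.0116). Its lowest Tfam KO liver just cleared the highest control. Lyrm7 rose by 0.68 (SE 0.235, edgeR adjusted p = 0.0455), at 2.20 to 3.52 CPM in controls and 3.65, 6.11 and 3.78 CPM. Uqcc3, a cytochrome b stabiliser, fell by 0.33 (SE 0.107, edgeR adjusted p = 0.036), from 23.2 to 29.1 CPM to 20.1, 17.6 and 22.8 CPM, with no overlap.

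Among cytochrome oxidase factors, Surf1 fell by 0.59 (SE 0.128, edgeR adjusted p = 0.00604), to 37.1, 24.7 and 38.8 CPM, all below the lowest control at 45.8 CPM. Cox10 went the other way, rising by 0.64 (SE 0.159, edgeR adjusted p = 0.0112). It was 14.2, 15.5 and 19.01 CPM in controls and 24.8, 32.0 and 17.5 CPM in Tfam KO, so 1 Tfam KO liver lay within the control range. Cox17 rose by 0.52 (SE 0.149, edgeR adjusted p = 0.0214) and Cox14, which acts with Coa3 on the first subunit, by 0.28 (SE 0.0833, edgeR adjusted p = 0.0254), both without overlap. Pet100 fell by 0.58 (SE 0.181, edgeR adjusted p = 0.0305), with values of 13.5, 9.9993 and 19.6 CPM of which the last lay inside the control range.

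Of the complex I factors, Ndufaf5 rose by 0.57 (SE 0.128, edgeR adjusted p = 0.00738), from 5.89, 6.81 and 7.71 CPM to 9.65, 11.3 and 9.19 CPM, without overlap, and Acad9 by 0.27 (SE 0.0918, edgeR adjusted p = 0.044). Ndufaf1 fell by 0.40 (SE 0.118, edgeR adjusted p = 0.0239) to 28.1, 27.6 and 24.7 CPM, all below the lowest control at 29.1 CPM. Ndufaf3 fell by 0.84 (SE 0.288, edgeR adjusted p = 0.0445) at 5.75, 5.63 and 14.8 CPM. Tmem126b, a membrane arm factor, fell by 0.52 (SE 0.181, edgeR adjusted p = 0.0466), and Sdhaf4 of complex II by 0.42 (SE 0.142, edgeR adjusted p = 0.0429). In Tfam KO replicate 3, Ndufaf3, Tmem126b, Sdhaf4, Pet100 and Cox10 all lay inside the control range. Of the 13 fits that each left out 1 library, Ndufaf3 was called in 3, Tmem126b in 2, Sdhaf4 in 4 and Acad9 in 2. Ndufaf3 stood at -0.61 without Tfam KO replicate 1, -0.60 without replicate 2 and -1.47 without replicate 3, Tmem126b at -0.52, -0.30 and -0.80, and Sdhaf4 at -0.29, -0.34 and -0.67.

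The count of calls changed with each Tfam KO liver left out. Without replicate 1 there were 8 and 19.1% of all genes, and without replicate 3 there were 21 and 41.8% of all genes. Without replicate 2, 5 of the 16 were called: Surf1 (-0.41), Uqcc2 (0.57), Atpaf1 (0.58), Ndufaf5 (0.48) and Ttc19 (0.52), and 2504 genes (14.5% of those tested) were called in place of 4992. Hepatocyte markers were lower for 4 of 10 in Tfam KO livers, with sums of 24843, 65296 and 102710 CPM against 103910 to 147050 CPM in controls, and 13 of 15 stress response genes rose (median 3.72). Of 8 fibroblast and stellate cell markers Col1a1 rose, by 1.46 (edgeR adjusted p = 0.00253), with sums of 223 to 281 CPM, inside the range of the controls. Their part in the result was not tested. The called values other than that of Lyrm7, which was not examined this way, numbered 15, and all kept their sign both in the livers with high and in those with low Xist. For members whose groups do not overlap, the sign could not change in such a split. Only 1 Tfam KO liver had low Xist. With the Xist level as a covariate in the fit, 2 of the 15 lost their call.

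Set side by side, with shared controls, Surf1 stood at -0.50 in Mfn DKO and -0.59 in Tfam KO, Ndufaf1 at -0.50 and -0.40, Ndufaf3 at -0.94 and -0.84, and Pet100 at -0.56 and -0.58. The direct comparison of Tfam KO with Mfn DKO livers, which does not use the controls in its contrast, called 0 of 43 members by edgeR (0.294% of all genes called), with 8 at an unadjusted p under 0.05 and 2 called by DESeq2's Wald test. Ndufaf5 and Uqcc2 led it, at 0.53 (SE 0.14) and 0.35 (SE 0.0949) higher in Tfam KO, each with an edgeR adjusted p of 0.101. Without Tfam KO replicate 3, 5 members were called higher: Ndufaf5, Uqcc2, Cox10, Atpaf1 and Ttc19, at 0.35 to 0.63. In that fit 24% of all genes were called, so the 11.6% of members called lies below the background.

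The subunits of complex I were lower in Mfn DKO livers in most of their values. Most values of complex II, III, IV and V subunits were negative there too, though edgeR called none of these lower. In Mfn DKO livers, 5 of 36 complex I subunits fell, none rose and 1 of 36 values was positive (median -0.23). Of all genes, 4.64% were called lower and 5.23% higher there. Ndufb3 led them, falling by 0.66 (edgeR adjusted p = 0.0135). In Tfam KO livers 2 of the 36 fell and none rose, where 11.3% of all genes were called lower and 18.1% higher. Of 15 further assembly genes, 1 rose and 3 fell in Tfam KO livers, Dmac2 by 0.91 (edgeR adjusted p = 0.00314) and Cmc2 by 0.64 (edgeR adjusted p = 0.00629). Proteins encoded by mitochondrial DNA fell for 3 of 11 in Mfn DKO (median -0.97) and for 11 of 11 in Tfam KO (median -4.32). Cox6a2 rose in both knockouts, by 5.39 and 7.06.

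The loss of Tfam could be compared between tissues, since both experiments held Tfam KO and control samples. The difference between the effects, islets minus livers, was called for 10 of 43 members, 6 higher and 4 lower, where 19.7% of 21283 genes were called, 7.72% higher and 12% lower. Tissue, experiment and the way Tfam was removed cannot be told apart in this contrast. Surf1 differed most, at 0.92 (SE 0.136, edgeR adjusted p = 0.00011), since it rose in islets (0.35) and fell in livers (-0.59). No other member was called in opposite directions in the 2 tissues.

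**Figure D4:**
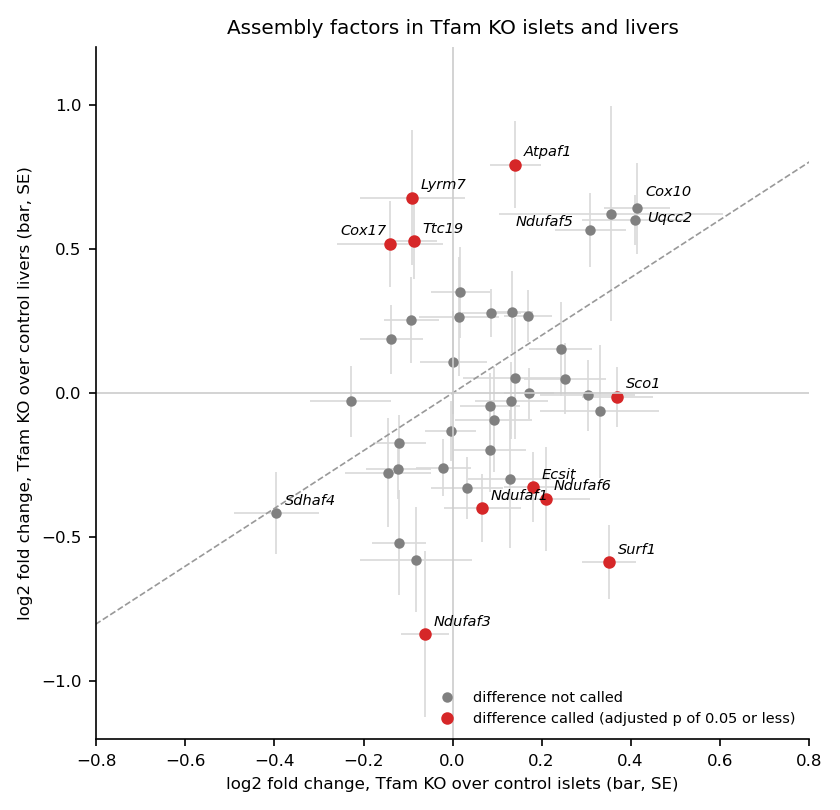
Log2 change of each factor in Tfam KO islets (horizontal) and Tfam KO livers (vertical), each with its SE, and red where the difference between the changes was called. Surf1 lies alone at the lower right, and Ttc19, Cox17, Lyrm7 and Atpaf1 lie high on the vertical axis near 0 on the horizontal axis.

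In 4 members the liver value was the higher one. Ttc19 had -0.09 in islets and 0.53 in livers, a difference of -0.60 (SE 0.142, edgeR adjusted p = 0.00499), Atpaf1 had 0.14 and 0.79 (-0.63, edgeR adjusted p = 0.00714), Cox17 had -0.14 and 0.52 (-0.67, edgeR adjusted p = 0.0162), and Lyrm7 had -0.09 and 0.68 (-0.76, edgeR adjusted p = 0.0463). Ranges of these 4 in control and Tfam KO islets overlapped, for example 34.8 to 43.8 and 31.7 to 41.6 CPM for Ttc19. Of the members with a higher islet value, Ecsit, an adaptor protein of the membrane arm complex, had 0.18 against -0.33 (0.50, edgeR adjusted p = 0.0127), Ndufaf1 0.07 against -0.40 (0.48, edgeR adjusted p = 0.0287) and Ndufaf3 -0.06 against -0.84 (0.78, edgeR adjusted p = 0.0455). Ndufaf6 and Sco1 differed by 0.61 and 0.37. Without liver Tfam KO replicate 2, Surf1 and Ttc19 remained as the 2 calls while 8.77% of all genes were called, and without replicate 3 there were 17 with 31.1% of all genes.

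With Tfam loss, 6 of 43 members (14%) were called in both tissues, as were 9.04% of the 15565 genes tested in both. Cox10 was 0.41 higher in islets and 0.64 higher in livers, Uqcc2 0.41 and 0.60, Ndufaf5 0.31 and 0.57, Acad9 0.17 and 0.27, while Sdhaf4 stood at -0.40 and -0.42, and Surf1 was the one of the 6 that differed in sign. The tissue difference of the first 5 was not called (edgeR adjusted p from 0.263 to 0.902).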

How the data were processed

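Each of the 46 deposited files gave 55487 genes with a raw count, a TPM and a CPM value, per the file headers. The submitters' processing notes name STAR 2.6.1b, RSEM 1.3.1, featureCounts and DESeq2 and the build GRCm38; which tool made which column, the annotation and the strand setting were not given in the sources used here. The authors' counts were used as deposited. The authors' TPM served for levels between genes, and the authors' CPM was checked against the counts and not used further. Counts were tested with edgeR 4.0.16 (R 4.3.3, TMM, its default filter by expression, quasi-likelihood F-test, Benjamini-Hochberg adjustment over all genes), with 1 fit per experiment over all its groups, a joint fit for the tissue difference, and CPM scaled within an experiment. DESeq2 1.42.0 was an alternative. The procedure was also run on simulated data for the Tfam islets, the Clec16a islets on RFD and the Mfn DKO livers. The outcome is not given here, and the comparison of Tfam KO livers with controls was not simulated.

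The members and gene lists were chosen with earlier results of these data known. Named in each comparison were called members, at most the 8 of smallest adjusted p per direction, or with none called at most 2, and from other lists at most 2 genes. Lyrm7 in livers is named through the tissue comparison, and other exceptions are named as such. The main fits did not pair libraries by the replicate numbers of the labels. Correlations of deviations between equal numbers ran from -0.0967 to 0.213 in the Tfam islets and -0.251 to 0.312 in the Clec16a islets. In the livers they ran from -0.346 to 0.354. Libraries correlated best with their own number in 6 of 12, 1 of 18 and 4 of 11 cases, in that order. These values do not settle whether equal numbers share a source.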

Additional observations from a re-analysis of the deposited data

Results flagged for a closer look

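The effect of Tfam loss on 10 factors differed between islets and livers by a test of the difference itself, with edgeR's joint fit of 27 libraries. Dixon's test found no outlying library in the 45 groups of member values it was applied to, which says nothing of libraries as a whole. In that number, the control livers of members called in both liver knockouts are counted for each knockout. Groups too small for the test were left out. These were the 3 Tfam KO livers and the male Tfam islets, with 3 controls and 2 Tfam KO libraries. The islet effect was higher for Surf1 (0.9226), Ndufaf3 (0.7771), Ndufaf6 (0.6071), Ecsit (0.503), Ndufaf1 (0.4807) and Sco1 (0.3662), and lower for Lyrm7 (-0.7601), Cox17 (-0.668), Atpaf1 (-0.6323) and Ttc19 (-0.5996), all as islet minus liver log2 changes. In leave-one-out fits of these 27 libraries, Surf1 and Ttc19 were called in all 27, Atpaf1, Cox17 and Ecsit in 26, Ndufaf1 in 24, Lyrm7 in 12, and Ndufaf3, Ndufaf6 and Sco1 in 7.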

How the results depend on the processing

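No named member changed direction under any alternative run, and of the values of single named members 970 kept their side of the threshold, 260 lost their call and 8 gained one. Counts of members called moved as follows, and the cause was not tested. The share of all genes called also moved when 1 library was left out. That share is not given beside each count here, so these counts are not results about the factors. Leaving out 1 library gave 5 to 15 calls in Tfam islets, 0 to 1 in Clec16a islets on RFD, 0 to 4 on HFD, 1 to 11 in Mfn DKO livers, 5 to 21 in Tfam KO livers, 0 to 5 between the 2 liver knockouts and 2 to 17 for the tissue difference. The lowest counts came without Tfam KO male replicate 2, Mfn DKO replicate 1 and liver Tfam KO replicate 2. In Mfn DKO livers 2 or 3 were called without any one of control replicates 1, 2, 3 and 6 or Mfn DKO replicates 2, 3 and 4, and in Tfam KO livers 10, 10 and 8 without control replicate 1, control replicate 6 and Tfam KO replicate 1. The tissue difference fell to 5 or 6 calls without any one of islet control female replicates 3 and 5, control male replicates 1, 2 and 3, Tfam KO female replicates 1 and 3, Tfam KO male replicate 1, and liver control replicates 1 and 2. On RFD the call came without control HFD replicate 5 or KO HFD replicate 4. The count on HFD was 2 without control HFD replicate 1 or KO RFD replicate 1, and 0 without any one of control HFD replicates 4 and 5 and KO HFD replicates 1, 2 and 3. Fitted alone, female Tfam islets gave 4 and males 2. With no filter on low counts there were 0 calls on HFD, 3 in Mfn DKO livers, 7 in Tfam KO livers and 5 for the tissue difference. DESeq2's Wald test gave 1 on RFD, 2 on HFD, 13 in Mfn DKO livers and 2 between the liver knockouts. With only the groups compared in the fit there were 0 calls on HFD, 13 in Mfn DKO livers and 7 in Tfam KO livers. With the replicate block there was 1 call on RFD, 0 in Mfn DKO livers, 1 in Tfam KO livers and 6 in Tfam islets; libraries correlated best with their own number in 6 of 12, 1 of 18 and 4 of 11 cases in the Tfam islets, Clec16a islets and livers. Of the members tested in Tfam islets, Cox20 had the highest SE, 0.252, with 20 to 59 counts per library. The part of depth in this was not tested.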
